A study of Rattus norvegicus with 10 samples.

Results

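The Slc25 genes encode the mitochondrial carrier family, and their transcripts were examined in the livers of rats given a carcinogen and a liver toxin and in control livers. Members were all non-control probes whose RefSeq accession, as named by the array design, carries a rat gene symbol beginning with Slc25, with 1 further family gene left out. This gave 53 probes for 35 carrier genes, out of 41012 probes and 13832 named genes on the array. A gene was tested where 5 or more of the 10 arrays read a probe of it clearly over background, which held for 25 of the 35 carriers and for 6855 genes in all.

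Most mitochondrial carriers are small proteins of the inner mitochondrial membrane that move nucleotides, phosphate, amino acids, acylcarnitines, carboxylates and cofactors between the matrix and the cytosol. Each is built from a repeated pair of membrane-spanning helices, and most work as exchangers. In liver they link the matrix to gluconeogenesis, ureagenesis, lipid synthesis and fatty acid oxidation, pathways that are split between both compartments.

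Liver RNA came from 10 male Wistar rats, with 1 Agilent 4x44K array in 1 colour (Cy3) for each rat. The 5 control rats had received vehicle only. The 5 treated rats had received 200 mg/kg diethylnitrosamine (DEN), an alkylating carcinogen, by 1 intraperitoneal injection when 6 weeks old. Thioacetamide (TAA, 200 mg/kg), a toxin that injures and scars the liver, followed after a gap of 2 weeks. It was injected 2 times a week for 3 weeks out of every 4, over a course given as 23 weeks. The labels also give 23 weeks as the age of every rat, so the age at sampling is uncertain. Whole liver was used, so fewer cells of a type and less RNA per cell cannot be told apart.

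All 8 hepatocyte markers examined were above background on every array. Their mean log2 level per rat ran from 5.57 to 6.17 in control and from 4.67 to 4.96 in DEN/TAA. Values here are log2 spot intensity minus each array's 75th percentile of detected probes, so they show relative change of a gene between rats and not abundance between genes. Between 16.5% and 32.9% of spots were above background on control arrays and between 36.1% and 46.6% on DEN/TAA arrays. A dim gene therefore often has only an upper limit in control. That limit, the lowest scaled signal of any probe well above background, was highest (-3.75) on control replicate 5, the array with the fewest detected spots. The median log2 difference (DEN/TAA minus control) of all genes tested was 0.33. Under other scalings it was 0.022 (percentile over all probes), 0.99 (spike-in RNA), -0.28 (normexp background correction), 0.18 (quantile normalisation) and 0.082 (the authors' own values), so a small carrier difference has to be read against that shift.

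Carriers moved in both directions. Of the 25 tested carriers, 6 were higher in DEN/TAA, 8 were lower and 11 did not pass the threshold (limma adjusted p under 0.05), with a median log2 difference of -0.050. Among all genes tested 55.5% passed, 39.2% as higher and 16.3% as lower, against 56.0% of the carriers, 24.0% as higher and 32.0% as lower. The groups of rats did not overlap for 11 carriers (44.0%), against 39.4% of all genes. The carriers were thus called about as often as other genes. The split between directions depended on the scaling: 3 higher and 9 lower with the all-probe percentile, 11 and 2 by spike-in, 3 and 10 with normexp, 4 and 8 with quantile normalisation and 4 and 7 in the authors' values. The split of all 6855 genes moved too. In the same order it was 1617 higher and 1597 lower, 4454 and 394, 883 and 1950, 1941 and 1353, and 2036 and 1315. All 14 called carriers had the same sign of difference within each of the 3 slides. For the 11 carriers without overlap between groups that sign was fixed in advance, so it is no separate support. Control replicate 3 was the only control rat on slide 2, and DEN/TAA replicate 5 the only treated rat on slide 3. Of the 14 called carriers, 10 kept their sign in all 6 scalings, and 4 were called in all of them: Slc25a4 and Slc25a24 as higher, Slc25a23 and Slc25a47 as lower. The probe used for Slc25a24 was undetected on every control array and met the filter through treated rats alone, so its calls set detected against undetected signal. The second Slc25a24 probe, which did not pass the filter, was detected on 1 of 5 control arrays and differed by -0.77.

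**Figure D1:**
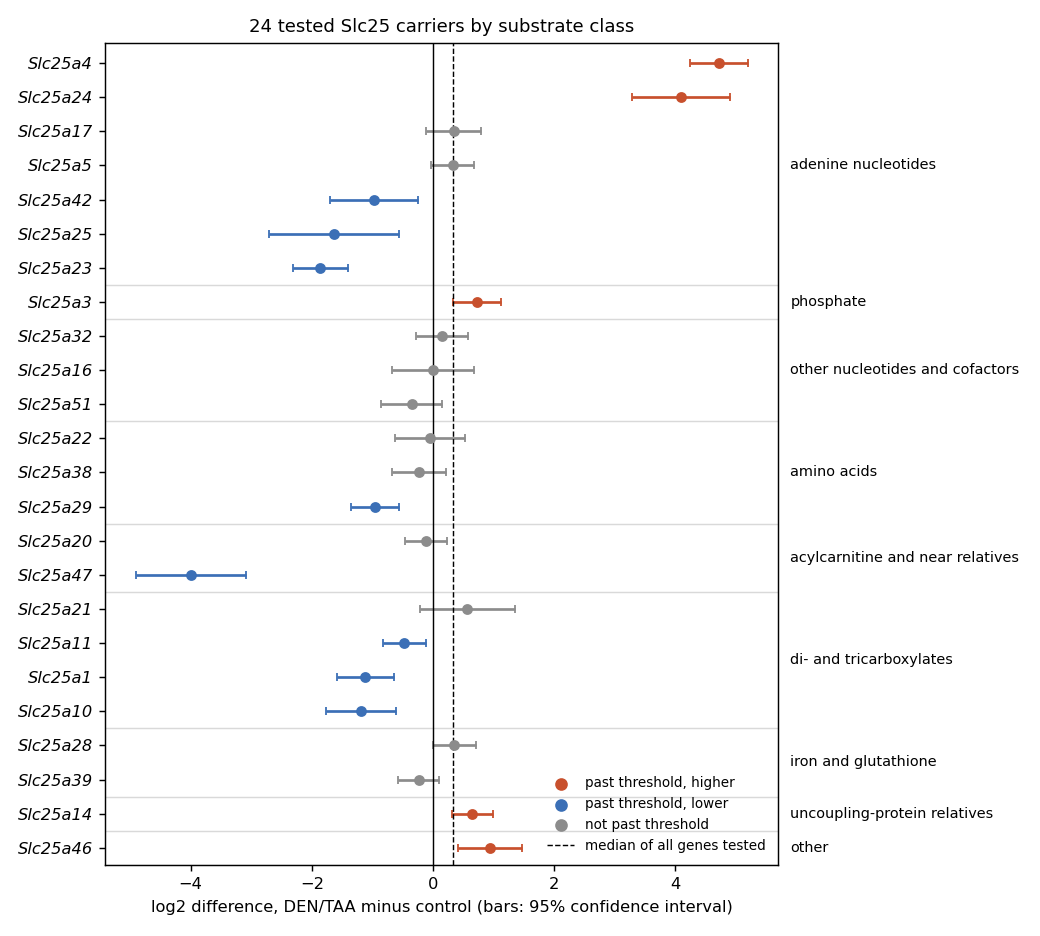
The log2 difference (DEN/TAA minus control, x axis) of 24 of the 25 tested carriers, grouped by substrate class, with 95% confidence intervals from limma; colour shows the call, the solid line is 0 and the dashed line the median of all genes tested (0.33). Slc25a4 (4.72) and Slc25a24 (4.09, the probe used undetected in control, so that only a rise of at least 12.3-fold is measured) lie far to the right and Slc25a47 (-3.996) far to the left, while carriers of 1 class lie on both sides of 0.

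The carriers with the largest rise and the largest fall, and the close paralog of the first, are shown by the 250 bases before their start sites, because the same array reads such different changes from them. The sequences are from RefSeq on GRCr8, all on the plus strand and written 5′ to 3′. Slc25a4 lies at chr16:52805271-52805520, Slc25a5 at chrX:120897366-120897615 and Slc25a47 at chr6:133531491-133531740. Capitals mark every match, on either strand, to any of the 10 motifs searched.
Slc25a4: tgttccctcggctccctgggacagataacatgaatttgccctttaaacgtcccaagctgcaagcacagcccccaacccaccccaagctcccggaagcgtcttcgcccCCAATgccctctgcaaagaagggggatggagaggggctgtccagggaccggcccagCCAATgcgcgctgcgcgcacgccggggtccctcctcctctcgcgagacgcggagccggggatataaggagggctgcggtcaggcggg
Slc25a5: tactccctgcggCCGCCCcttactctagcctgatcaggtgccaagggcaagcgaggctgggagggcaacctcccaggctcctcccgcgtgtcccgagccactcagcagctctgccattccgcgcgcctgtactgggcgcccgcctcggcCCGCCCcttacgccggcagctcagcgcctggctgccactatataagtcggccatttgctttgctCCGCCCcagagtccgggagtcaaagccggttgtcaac
Slc25a47: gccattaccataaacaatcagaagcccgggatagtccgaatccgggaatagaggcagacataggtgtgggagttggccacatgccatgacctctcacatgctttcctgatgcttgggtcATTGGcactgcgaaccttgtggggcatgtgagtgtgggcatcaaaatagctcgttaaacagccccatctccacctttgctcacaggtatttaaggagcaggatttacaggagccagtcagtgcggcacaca

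The window of Slc25a4 held 2 CCAAT boxes (CCAAT, found in 34.0% of all 33469 promoter windows of this length) and 0 SP1 boxes (GGGCGG, 30.5%). That of its paralog Slc25a5 held 0 CCAAT boxes and 3 SP1 boxes, which lie on the minus strand and so are printed as CCGCCC. That of Slc25a47 held 1 CCAAT box, read as ATTGG, and had the lowest share of G and C of the 3 windows, 51.6% against 65.6% for Slc25a4 and 66.8% for Slc25a5. None of the 3 windows matched the other motifs searched: TATAAA (12.9% of windows), TGACGTCA (1.59%), GCGCATGC (2.20%), CACGTG (5.59%), TGAGTCA (4.05%), TGACNNNGC (10.1%), the DR1 element (0.051%) and the HNF1 element (0.003%). A window matched none or some of these letters, which says nothing of binding. In the 22 tested carriers with 1 listed promoter, several motifs matched in 1 carrier each. These were TGACGTCA, the cyclic AMP response element, and TGACNNNGC in Slc25a25, TGAGTCA in Slc25a11, CACGTG in Slc25a51 and TATAAA in Slc25a38.

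Adenine nucleotide carriers showed the widest spread of any class: of 8 on the array 7 were tested, 2 rose, 3 fell and 2 did not pass. Among all genes tested 39.2% rose and 16.3% fell. Slc25a4, the ADP/ATP translocase best known from heart and skeletal muscle, read -4.01, -4.69, -4.59, -4.65 and -4.65 in control replicates 1 to 5. In DEN/TAA replicates 1 to 5 it read 0.030, 0.41, 0.59, 0.40 and -0.42. Every treated rat stood more than 3 log2 units above every control rat. The difference was 4.72 (SE 0.22, limma adjusted p = 5.51e-08), or 26.4-fold, and 23.3-fold with the control array that was not above background raised to that limit, called its floor. The other Slc25a4 probes gave 5.22 and 4.90. Neither was above background on any control array, and their rises were at least 12.2-fold and 20.3-fold. The rise lay between 3.11 and 5.38 over the 6 scalings.

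Slc25a5, the ADP/ATP translocase of liver and proliferating cells, stayed close to its control level. It read 0.68, 0.93, 0.90, 0.88 and 0.76 in control replicates 1 to 5 and 1.104, 0.96, 0.85, 1.30 and 1.56 in DEN/TAA replicates 1 to 5. The groups overlapped through DEN/TAA replicate 3. The difference of 0.32 (95% confidence interval -0.026 to 0.67, limma adjusted p = 0.106) lay close to the median shift of all genes, and the other 2 probes gave 0.27 and 0.25. It passed with spike-in scaling (0.99) and in the authors' values (0.36). Several rat pseudogenes carry the name Slc25a5, so a probe may also read such a copy, which was not examined.

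Set against each other within a rat, the translocases moved apart. The log2 signal of Slc25a5 minus that of Slc25a4 was 5.35 ± 0.38 (SD, n = 5) in control rats. In DEN/TAA rats it was 0.95 ± 0.65 (SD, n = 5), and the groups did not overlap. That is a shift of -4.40 (two-sided exact permutation test over rats, p = 0.00794, the smallest it can give, adjusted p = 0.0317 over 8 pairs of carriers). Within slides it was -4.34, -4.91 and -3.49. Such a difference within an array does not depend on the scaling constant, but it can change with the background correction. It was -3.08 with normexp and -2.75 in the authors' values, both called.

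The calcium-regulated ATP-Mg/phosphate carriers, which load the matrix with adenine nucleotides, diverged as well. Slc25a24 read -5.94, -5.66, -6.19, -5.57 and -3.99 in control replicates 1 to 5 and -1.49, -1.44, -1.56, -0.71 and -1.69 in DEN/TAA replicates 1 to 5. It was above background on no control array and on all 5 DEN/TAA arrays, so it met the filter through treated rats alone. It was at least 12.3-fold higher, and its limma adjusted p of 4.94e-06 sets detected against undetected signal. The reading of -3.99 came from control replicate 5 and lay under that array's floor of -3.75. The second Slc25a24 probe did not repeat this. It was detected on 1 of 5 control and 3 of 5 DEN/TAA arrays, did not pass the filter, and differed by -0.77.

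Slc25a23, a carrier of the same kind, moved the other way. It read -3.57, -3.83, -4.47, -4.42 and -4.51 in control replicates 1 to 5 and -5.73, -6.09, -6.14, -6.02 and -6.14 in DEN/TAA replicates 1 to 5. It differed by -1.86 (SE 0.21, limma adjusted p = 2.30e-05), or 3.64-fold lower, without overlap. It was above background on 4 of 5 arrays of each group. In the authors' values the fall was smaller, -0.41, and still passed. The log2 signal of Slc25a24 minus that of Slc25a23 shifted by 5.96 between the groups, and by 5.64 with undetected arrays raised to the floor (exact permutation p = 0.00794, adjusted p = 0.0317 over 8 pairs, for both). The shift was 4.01 with normexp and 2.46 in the authors' values, both called. The control side is undetected Slc25a24 signal, and Slc25a24 met the filter through treated rats alone. No value is therefore an exact size of the shift, and its p-values set detected against undetected signal.

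Slc25a25, the third ATP-Mg/phosphate carrier measured, also fell, with wide scatter between rats. It read 1.03, 1.70, 1.75, 2.55 and 3.04 in control replicates 1 to 5 and 1.02, -0.10, -0.38, -0.50 and 1.84 in DEN/TAA replicates 1 to 5. The groups overlapped, since DEN/TAA replicates 1 and 5 lay near or among the controls. The difference was -1.64 (SE 0.49, limma adjusted p = 0.0141), and it was not called with spike-in scaling (-0.98, limma adjusted p = 0.0801). Slc25a41, the remaining carrier of this kind on the array, was above background on no array.

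Slc25a42, which brings coenzyme A into the matrix in exchange for adenine nucleotides, fell with a margin that single rats could end. It read -2.30, -2.44, -1.71, -1.38 and -1.95 in control replicates 1 to 5 and -3.08, -3.92, -2.61, -3.12 and -1.95 in DEN/TAA replicates 1 to 5. The difference was -0.98 (SE 0.33, limma adjusted p = 0.0266). Without control replicate 3 or 4, or without DEN/TAA replicate 1, 2 or 4, its limma adjusted p rose to between 0.0554 and 0.0623. With spike-in scaling it was -0.32. Slc25a17, the peroxisomal carrier of coenzyme A and other cofactors, was above background on 0 of 5 control and 5 of 5 DEN/TAA arrays, but its mean in treated rats (-5.04) was under the mean control floor (-5.00). No fold can be given for it (limma adjusted p = 0.183). Its call and direction depended on the setting: it passed as higher with spike-in scaling (1.00) and without control replicate 1 (0.49, limma adjusted p = 0.0359), and as lower with normexp (-0.96, limma adjusted p = 0.0116).

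**Figure D2:**
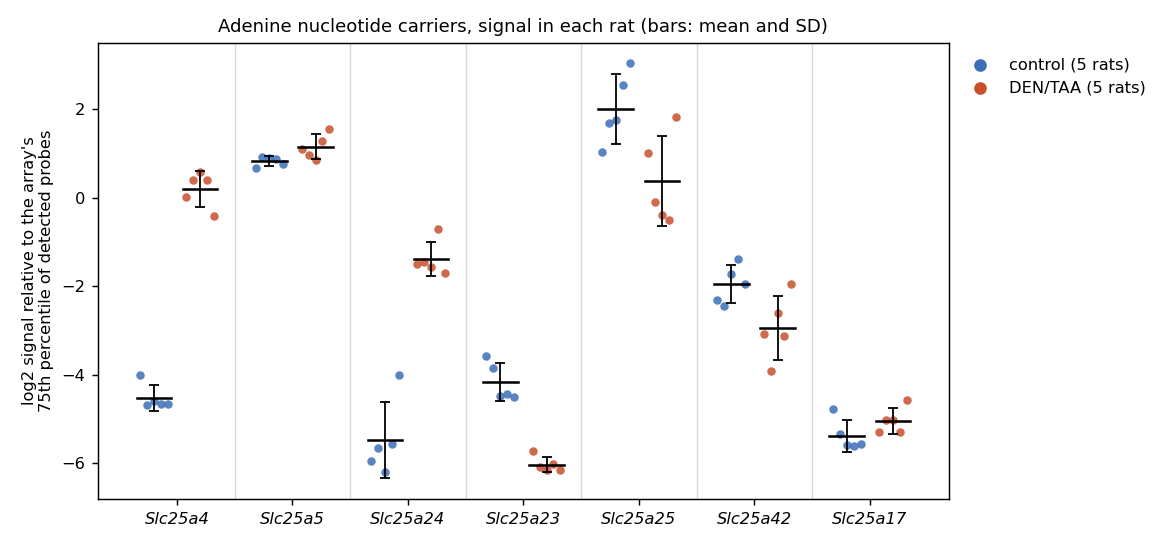
Log2 signal relative to the array's 75th percentile of detected probes (y axis) for each adenine nucleotide carrier in every rat; points are rats (blue control, orange DEN/TAA, 5 each) and bars give mean and SD. Slc25a4 rises from a control mean of -4.52 to 0.20 while Slc25a5 stays near 1, and Slc25a24 and Slc25a23 move in opposite directions; levels of different carriers are not comparable.

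Slc25a3, the phosphate carrier that supplies ATP synthase, rose modestly. It read 1.04, 1.09, 1.62, 1.61 and 1.83 in control replicates 1 to 5 and 2.35, 2.14, 2.02, 2.21 and 2.09 in DEN/TAA replicates 1 to 5. Every treated rat exceeded every control rat. The difference was 0.72 (SE 0.18, limma adjusted p = 0.00530), and 0.42 without a call with the percentile over all probes (limma adjusted p = 0.0868).

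Of 6 amino acid carriers on the array 3 were tested, 1 fell and 2 did not pass, where 55.5% of all genes passed and 16.3% fell. Slc25a22, a glutamate carrier, read -0.93, -0.25, -0.22, -0.20 and -0.76 in control replicates 1 to 5 and -0.79, -1.18, -0.64, -0.13 and 0.14 in DEN/TAA replicates 1 to 5. Its groups overlapped widely, with a difference of -0.050 (95% confidence interval -0.62 to 0.52). Slc25a38, the glycine carrier used for heme synthesis, read -1.94, -2.09, -2.15, -1.60 and -1.83 in control and -2.18, -2.32, -2.37, -2.44 and -1.47 in DEN/TAA, in the order of the replicates. Its difference was -0.23 (95% confidence interval -0.68 to 0.21, limma adjusted p = 0.351), and without DEN/TAA replicate 5 it was -0.40 and passed (limma adjusted p = 0.0494).

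Slc25a29, a carrier of basic amino acids, was the called member of this class, near background. It read -4.85, -4.94, -5.14, -4.88 and -4.67 in control and -5.70, -5.74, -6.38, -5.96 and -5.49 in DEN/TAA, in the order of the replicates, without overlap. The difference was -0.96 (SE 0.18, limma adjusted p = 9.90e-04), with 3 of 5 control and 4 of 5 DEN/TAA arrays above background. It shrank to -0.29 with spike-in scaling and to -0.066 in the authors' values, both without a call, so its fall depends on how the arrays are scaled. The glutamate carrier Slc25a18, the ornithine carrier Slc25a2 and Slc25a44, a carrier of branched-chain amino acids, were above background on no array. The aspartate/glutamate carriers Slc25a12 and Slc25a13 were not analysed here.

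Slc25a20, the carnitine-acylcarnitine carrier that admits long-chain acyl groups for oxidation, showed no detectable change. It read -0.98, -0.95, -0.92, -0.86 and -1.32 in control replicates 1 to 5 and -1.20, -1.33, -0.87, -1.33 and -0.90 in DEN/TAA replicates 1 to 5. Both groups covered nearly the same range. The difference was -0.12 (95% confidence interval -0.46 to 0.22, limma adjusted p = 0.543), and it lay between -0.43 and 0.54 over the 6 scalings without a call in any.

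Slc25a47, a relative of Slc25a20 that is known for its restriction to hepatocytes, showed the largest fall of all the tested carriers. It read 1.59, 3.27, 1.83, 2.97 and 2.89 in control replicates 1 to 5 and -2.03, -2.16, -1.71, -1.26 and -0.26 in DEN/TAA replicates 1 to 5. The lowest control rat stood above the highest treated rat by more than 1 log2 unit. The difference was -3.996 (SE 0.41, limma adjusted p = 1.38e-05), or 16.0-fold lower, with all 10 arrays above background. It lay between -4.30 and -3.33 over the 6 scalings, with a call in each. In the same rats the 8 hepatocyte markers had a median difference of -0.90, with 7 of 8 lower and 1 not called. The largest fall among them was -2.06, for Apoc3. Their part in the fall of Slc25a47 was not tested.

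The pairs tested between classes drew on Slc25a5, Slc25a20, Slc25a22 and Slc25a38, none of which was called in the main fit. Their shifts within a rat were smaller than those of the adenine nucleotide paralogs. No pair of Slc25a4 or Slc25a47 with a carrier of another class was tested. Slc25a5 gained 0.56 on Slc25a38 (exact permutation p = 0.0159, adjusted p = 0.0423 over 8 pairs), in a pair added after detection was seen. With slide as a block the shift was 0.46 and did not pass (exact adjusted p = 0.0988), and the call held without control replicate 3 or DEN/TAA replicate 5 and was lost when any other rat was left out. Slc25a5 gained 0.44 on Slc25a20 (exact p = 0.0397, adjusted p = 0.0794) and 0.37 on Slc25a22 (exact p = 0.0794, adjusted p = 0.127), neither of which passed. Slc25a22 and Slc25a38 shifted against Slc25a20 by 0.069 and -0.11 (exact adjusted p = 0.794 for both).

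Of 4 tested carriers of di- and tricarboxylates 3 fell and 0 rose, where 16.3% of all genes fell, and the fourth (Slc25a21) differed by 0.57. Their median was -0.80, and none of the 4 was called lower with spike-in scaling. Slc25a1, the citrate carrier that exports acetyl units for lipid synthesis, read -0.45, -1.36, -1.31, -1.03 and -1.29 in control and -1.72, -2.23, -2.26, -2.51 and -2.31 in DEN/TAA, in the order of the replicates. No treated rat reached the lowest control rat. The difference was -1.12 (SE 0.21, limma adjusted p = 9.85e-04), or 2.17-fold lower, and was -1.07, -1.07 and -1.16 within slides.

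Slc25a10, the dicarboxylate carrier that exchanges malate or succinate for phosphate, fell by a like amount. It read 1.15, 0.56, 0.052, -0.39 and -0.11 in control and -0.70, -0.86, -0.84, -1.13 and -1.14 in DEN/TAA, in the order of the replicates, again without overlap. The difference was -1.19 (SE 0.26, limma adjusted p = 0.00261), or 2.28-fold lower. Within a rat Slc25a1 and Slc25a10 shifted against each other by 0.071 (exact permutation p = 0.794). With spike-in scaling neither was called, at -0.45 and -0.53.

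Slc25a11, the oxoglutarate/malate carrier of the malate-aspartate shuttle, fell least. It read -0.96, -1.08, -1.17, -0.98 and -1.46 in control and -1.48, -1.67, -1.49, -1.99 and -1.39 in DEN/TAA, in the order of the replicates. Control replicate 5 lay among the treated rats. The difference was -0.47 (SE 0.16, limma adjusted p = 0.0277), and the call was lost without control replicate 1, 2 or 4 or DEN/TAA replicate 2 or 4, at limma adjusted p between 0.0520 and 0.0742. With spike-in scaling it turned to 0.19. Slc25a21, the oxodicarboxylate carrier, was detected on 1 of 5 control arrays and differed by 0.57 without a call (limma adjusted p = 0.196). It passed with spike-in scaling (1.23).

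**Figure D3:**
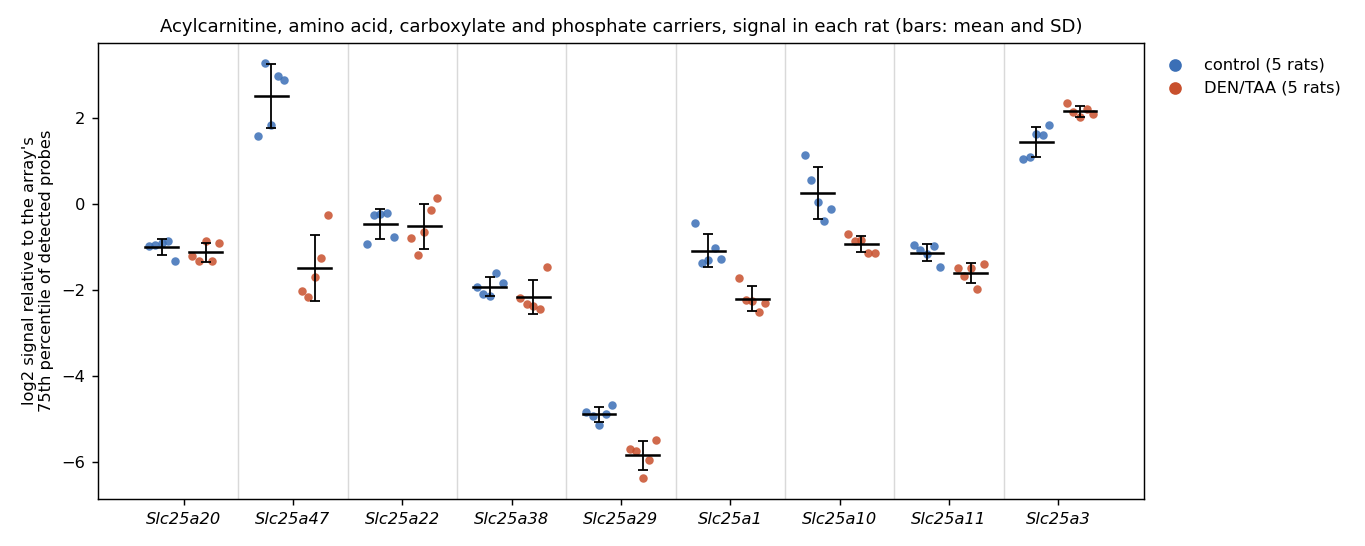
Log2 signal relative to the array's 75th percentile of detected probes (y axis) for acylcarnitine, amino acid, carboxylate and phosphate carriers in every rat; points are rats (blue control, orange DEN/TAA, 5 each) and bars give mean and SD. Slc25a47 drops from a mean of 2.51 to -1.48, Slc25a1 and Slc25a10 drop by about 1 unit, and Slc25a20, Slc25a22 and Slc25a38 overlap between groups.

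Among carriers of other nucleotides and cofactors, Slc25a16, Slc25a32 and Slc25a51, the last a carrier of NAD, were not called and differed by between -0.35 and 0.15 with limma adjusted p of at least 0.215. Slc25a51 passed as lower with normexp (-1.05), with array weights (-0.45), with undetected arrays raised to the floor (-0.72) and without control replicate 5 (-0.53), at limma adjusted p between 0.0105 and 0.0410. The other Slc25a51 probes differed by -0.42, 0.24 and 0.085, so its probes disagreed in direction. The last of them did not pass the filter. Slc25a32 passed as higher with spike-in scaling (0.81). Slc25a33, a pyrimidine nucleotide carrier, was above background on 0 of 5 control and 3 of 5 DEN/TAA arrays and was not tested.

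Iron and glutathione carriers did not pass. Slc25a28, mitoferrin 2, differed by 0.35 (95% confidence interval 0.0042 to 0.70, limma adjusted p = 0.0793), and it passed without control replicate 1, at 0.46 (limma adjusted p = 0.0188), without the 2 dimmest control arrays (0.45) and with spike-in scaling (1.02). Slc25a39, needed for glutathione import, differed by -0.24 (limma adjusted p = 0.219), and its second probe by -0.082. It passed as lower with the percentile over all probes (-0.54). Slc25a37, mitoferrin 1, which is prominent in red cell precursors, was above background on 0 of 5 control and 2 of 5 DEN/TAA arrays and was not tested. The uncoupling-protein relative Slc25a14 rose by 0.65 (SE 0.16, limma adjusted p = 0.00432) and Slc25a46, an outer membrane member of the family that bears on mitochondrial shape, by 0.94 (SE 0.24, limma adjusted p = 0.00632). Each was detected on 3 of 5 control arrays, and with normexp both turned, to -0.36 and -0.26. Neither was called with the percentile over all probes or with quantile normalisation, and Slc25a46 was not called with undetected arrays raised to the floor (0.48, limma adjusted p = 0.0883). Slc25a27 was above background on 4 of 5 DEN/TAA and 0 of 5 control arrays and was not tested. Slc25a30, Slc25a34 and Slc25a54 were above background on no array.

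**Figure D4:**
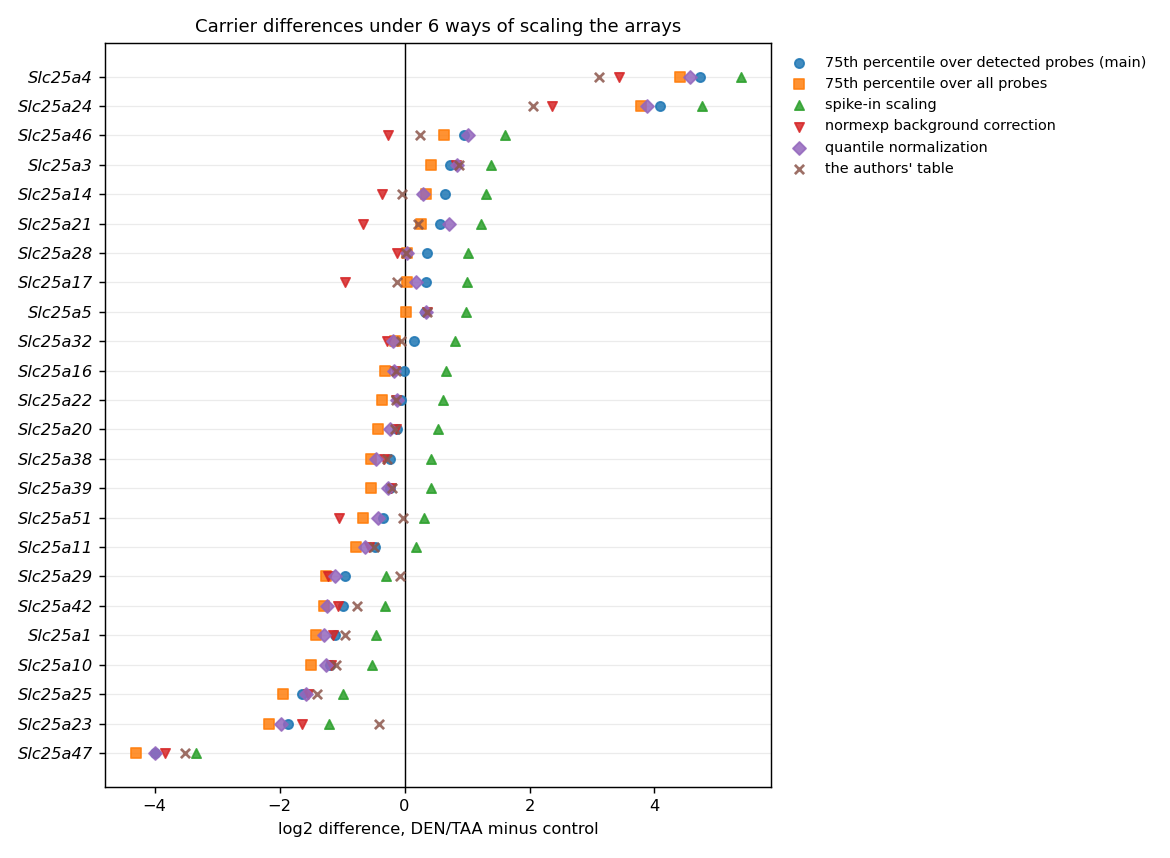
The log2 difference (DEN/TAA minus control, x axis) of 24 tested carriers under 6 ways of scaling the arrays, 1 marker for each. Slc25a4, Slc25a24, Slc25a23 and Slc25a47 stay on 1 side of 0 under all 6, whereas dim carriers such as Slc25a46 and Slc25a14 cross 0 with normexp. The probe used for Slc25a24 was undetected in control, so its markers are not exact sizes.

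Genes that work with the carriers were read from the same fit. Of 45 listed partners 36 were tested, of which 12 rose and 7 fell (52.8%, against 55.5% of all genes), with a median of 0.083. Here too the split moved with the scaling, from 6 higher and 12 lower with the all-probe percentile to 19 and 3 by spike-in. Over all 6855 genes it moved from 1617 higher and 1597 lower to 4454 and 394.

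Around the carnitine-acylcarnitine carrier, 2 of 5 tested enzymes fell and 1 rose. Cpt1a, the liver enzyme that makes acylcarnitines, differed by -1.26 (limma adjusted p = 0.0120), and Crot, the peroxisomal octanoyltransferase, by -2.11 (limma adjusted p = 1.21e-05). Cpt1b, the muscle form, rose by 1.21 (limma adjusted p = 0.0158), and was detected on 2 of 5 control arrays. Cpt2, the matrix enzyme that acts after Slc25a20, differed by -0.094 (limma adjusted p = 0.720).

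Genes around the citrate carrier moved both ways. Acly, which splits exported citrate, differed by -1.57 (limma adjusted p = 2.66e-04), in the same direction as Slc25a1. Me1, the cytosolic malic enzyme, rose by 2.02 (limma adjusted p = 2.43e-05), and Cs, which makes citrate in the matrix, rose by 0.57 (limma adjusted p = 0.0104). Of 4 malate-aspartate shuttle enzymes, the aspartate aminotransferases Got1 and Got2 fell (-1.15 and -0.51), and Mdh1 and Mdh2 did not pass. In the glycerol phosphate shuttle Gpd1 fell (-1.72) and Gpd2 was not called.

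Among proteins of the outer membrane, 3 of 5 rose and 1 fell. The channel Vdac2 rose by 1.25 (limma adjusted p = 0.00270). The carrier-like Mtch1 and Mtch2 went apart, at 0.72 and -0.61 (limma adjusted p = 0.00105 and 0.00205). The machinery that imports carrier proteins was higher in 4 of 10 tested genes and lower in 0, and the share higher is near that of all genes (39.2%). The 4 were receptors and the pore of the outer membrane, led by Tomm20 at 1.00 and Tomm70, the receptor for carrier precursors, at 0.83 (limma adjusted p = 1.14e-04 and 0.00175). None of the 6 tested intermembrane chaperones and inner membrane subunits passed. The uncoupling protein Ucp2 was at least 1.86-fold higher, above background on no control array. The pyruvate carrier genes Mpc1 and Mpc2 and the 3 tested heme and iron genes were not called.

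Markers of cell types other than hepatocytes mostly rose between the same groups of rats, in a comparison where 39.2% of all genes rose. Among biliary and progenitor markers all 5 tested of 7 listed rose, with a mean level per rat from -6.55 to -5.30 in control and from -3.26 to -2.36 in DEN/TAA. Cldn4, Krt19, Prom1 and Spp1 were above background on no control array and met the filter through treated rats alone, so the control levels of that list are background readings apart from Epcam. Among stellate cell markers 6 of 7 tested of 8 listed rose, from between -4.26 and -3.86 to between -2.30 and -1.75. Among macrophage markers 6 of 8 rose and 1 fell, from between -3.47 and -2.38 to between -1.43 and -0.86. Of these Trem2 was above background on no control array and met the filter through treated rats alone. Of the endothelial markers 3 of 4 tested of 6 listed rose, from between -3.20 and -2.71 to between -2.02 and -1.68. Of the erythroid markers 2 of 3 tested of 6 listed rose, from between -5.90 and -4.17 to between -3.85 and -1.34. Both tested lymphocyte markers of 6 listed, Cd3g and Zap70, and both tested cycling cell markers of 5 listed, Ccnb1 and Cdk1, rose too. The mean lymphocyte level went from between -7.27 and -5.63 to between -4.78 and -4.46, and the cycling level from between -6.52 and -4.91 to between -5.49 and -4.48. Of these 4 genes Cdk1 was detected in control, on 2 of 5 arrays. Of 5 skeletal and heart muscle markers only Tnnt2 passed the filter, above background on 0 of 5 control arrays, with levels from -8.08 to -5.87 in control and from -6.05 to -3.93 in DEN/TAA. Ckm, Myh7, Myl2 and Actn2 did not pass it, which does not show that they are absent. The part of these cells in the carrier differences was not tested.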

How the data were processed

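Spot intensity was deposited as Agilent Feature Extraction files, version 11.5.1.1 per the file headers (the submitters' processing notes name 15.5). Per the file headers, the scanner software subtracted background from each intensity; arrays were not scaled to each other. A second deposited table holds log2 values by the authors, which follow the rank of the raw median intensity (Spearman's rho of 1) and share 1 median (8.59), without stated steps. No spot was saturated.

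Control spots and outlier-flagged spots were left out, spots of a probe averaged, and each array's 75th percentile over the 6229 probes above background on all 10 arrays subtracted. Accessions named 17502 probes through RefSeq (GRCr8), and 23510 had no symbol. A gene is its passing probe with the highest mean. limma 3.58.1 in R 4.3.3 was fitted to all 10 arrays (two-sided, Benjamini-Hochberg over 6855 genes, threshold 0.05) and tested on simulated data. Pairs of carriers were compared by exact permutation over 252 assignments (scipy 1.17.1). Of 9 fixed pairs 4 could be tested. A further 4 pairs were chosen after detection was seen, with Slc25a22 and Slc25a38 in place of Slc25a13.

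The values of 1 tested carrier and 1 partner gene are not reported here, though counts include them. The carriers and lists were chosen with earlier results of these data known. Genes named were all tested carriers of adenine nucleotides, amino acids and acylcarnitine, every other called carrier, and up to 2 changed partners per list and direction; others named were chosen after their values were seen. Replicates are taken as separate rats. normexp (offset 50) used median signals. Alternatives were other scalings, background corrections, filters, probe rules, blocks, priors, weights, a floor, and leaving out rats.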

Additional observations from a re-analysis of the deposited data

Results flagged for a closer look

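In each group of 5 rats the gap of the highest or lowest rat to its neighbour was compared with Dixon's 95% critical value (0.71), over 50 groups of tested carriers and 16 groups of within-rat differences. Chance flags about 1 in 20 groups, and 9 values stood apart here, from 4 rats. In control they were replicate 1 for Slc25a4 (-4.01), replicate 5 for Slc25a20 (-1.32) and replicate 5 for Slc25a24 (-3.99). In DEN/TAA they were replicate 5 for Slc25a16 (-2.46), Slc25a38 (-1.47) and Slc25a51 (-4.80), and replicate 4 for Slc25a24 (-0.71). Control replicate 1 also stood apart for Slc25a5 minus Slc25a4 (4.69) and for Slc25a22 minus Slc25a20 (0.051).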

How the results depend on the processing

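Of 567 alternative values for 24 single carriers, 497 kept their direction and side of the threshold, 25 lost a call, 15 gained one and 30 changed sign. The number of higher carriers (6) became 3 with the all-probe percentile, 11 by spike-in, 3 with normexp and 1 of 15 when all 10 arrays had to be above background. Over all genes, 1617, 4454 and 883 of 6855 and 1154 of 3568 were higher in those settings, in that order. The number of lower carriers (8) became 2 by spike-in and 13 of 35 with no filter. Over all genes, 394 of 6855 were lower by spike-in and 5801 of 13832 with no filter. Leaving out 1 rat gave 6 to 8 higher and 6 to 9 lower carriers. Partner genes (12 higher, 7 lower) became 6 and 12 with the all-probe percentile and 19 and 3 by spike-in, and 7 were higher with normexp. Leaving out 1 rat gave 10 to 12 and 6 to 9.

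Signs changed with normexp for Slc25a46 (-0.26), Slc25a14 (-0.36), Slc25a21 (-0.67), Slc25a28 (-0.11), Slc25a17 (-0.96) and Slc25a32 (-0.29). They changed in the authors' values for Slc25a14 (-0.039), Slc25a17 (-0.11) and Slc25a32 (-0.050), and with the floor for Slc25a21 (-0.17) and Slc25a17 (-0.11). Slc25a32 was -0.16 with the all-probe percentile and -0.19 with quantile normalisation. With spike-in scaling Slc25a16 (0.66), Slc25a22 (0.61), Slc25a20 (0.54), Slc25a38 (0.43), Slc25a39 (0.43), Slc25a51 (0.31) and Slc25a11 (0.19) turned positive. Slc25a16 was 0.024 with array weights. Leaving out 1 rat, Slc25a16 lay between -0.18 and 0.23 and Slc25a22 between -0.22 and 0.12. The cause was not tested.

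For the pairs, exact tests on fewer rats or within slides have fewer assignments, which by construction raises the smallest p. With normexp the called shifts were -3.08 (Slc25a5 minus Slc25a4), 4.01 (Slc25a24 minus Slc25a23, with the probe used for Slc25a24 undetected in control) and 0.70 (Slc25a5 minus Slc25a38). In the authors' values they were -2.75, 2.46 and 0.64, and all kept their call in both settings. With slide as a block they were -4.26, 6.07 and 0.46, without a call (exact adjusted p = 0.0741, 0.0741 and 0.0988). Without the 2 dimmest control arrays they were -4.60, 6.21 and 0.46, also without a call. Leaving out 1 rat gave -4.65 to -4.22, 5.69 to 6.41 and 0.45 to 0.63. Slc25a5 minus Slc25a4 and Slc25a24 minus Slc25a23 kept their call without control replicate 3 or DEN/TAA replicate 3 or 5. Without any other rat both lost it (exact adjusted p = 0.0635). Leaving out 1 rat, Slc25a5 minus Slc25a20 gave 0.36 to 0.58, with a call without DEN/TAA replicate 3. Slc25a5 minus Slc25a22 passed in the authors' values (0.49). Uncalled shifts changed sign: Slc25a1 minus Slc25a10 with quantile normalisation (-0.041), Slc25a22 minus Slc25a20 without the 2 dimmest control arrays (-0.084), and Slc25a38 minus Slc25a20 with slide as a block (0.024) and without those arrays (0.0068). Leaving out 1 rat these 3 lay between -0.076 and 0.25, -0.078 and 0.18, and -0.23 and 0.0056.

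Same-numbered rats did not deviate together throughout (correlations across genes from -0.22 to 0.20). The value of -0.22 came from replicate 4, which lay on slide 3 in control and slide 2 in DEN/TAA. Rats of different numbers were not compared, so these values cannot decide whether the numbers pair rats. With the replicate block 6 carriers were higher and 7 lower. Slc25a11 was not called under it (-0.47, limma adjusted p = 0.0626). The block was not run for carrier pairs, where its smallest exact p is 0.0625. Signal near background in control limits what can be read for dim carriers.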
